A study of Mus musculus with 8 samples.

Results

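Heme is an iron-containing ring that catalases, cytochromes and the cytochrome P450 enzymes of liver hold as their working group. Its synthesis starts in the mitochondrion, where ALAS1, the rate-limiting enzyme in liver, joins glycine to succinyl-CoA, passes through the cytosol and ends in the mitochondrion with the insertion of iron, while its breakdown runs through heme oxygenase, which opens the ring to biliverdin, and biliverdin reductases. In liver, Alas1 is known to be repressed by heme and induced on fasting through PGC-1α, and Hmox1 is known to be induced by heme and by oxidative stress. The genes described here are 7 of synthesis (Alas1, Alad, Uros, Urod, Cpox, Ppox and Fech) and 2 of breakdown (Hmox1 and Blvrb). They were chosen by name, as the rows of the count table with these gene symbols, and are 9 of the 45706 genes in the table. All 9 passed the filter on low counts, which kept 14629 genes.

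The data come from whole-liver RNA of 4 WT mice and 4 PLIN5 S155A mice, all female C57BL/6J animals aged 4 months and fasted overnight, with 1 library from each mouse. PLIN5 is a protein on the surface of lipid droplets, and in S155A mice a serine of the endogenous protein, a site phosphorylated by protein kinase A, is replaced by alanine in every cell that expresses it, a change that counts per gene do not show. The question was which transcripts differ in fasted liver when this serine cannot be phosphorylated. The mice also carry animal numbers, of which those below 200 are called the low series here and those above 800 the high series. Replicates 1 and 4 of WT and of S155A belong to the low series and replicates 2 and 3 to the high series. The labels do not say what else set the series apart.

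Libraries held between 39709830 and 54540612 estimated counts. The labels give hepatocytes as the cell type, and summed hepatocyte markers lay between 92622 and 110102 CPM (counts scaled to TMM-normalized library size) in WT and between 89014 and 126439 CPM in S155A livers, but markers of other cells were present as well, and none of the 9 marker lists had a gene at 0 in all mice. Lymphocyte markers summed to 2063 CPM in S155A replicate 3 and to between 19.3 and 46.7 CPM in the other 7 livers, and pancreatic acinar markers to 39.9 CPM in WT replicate 2 and to between 4.27 and 6.58 CPM elsewhere. Fewer cells of a type and less RNA per cell cannot be told apart in such samples.

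Promoter sequences were looked up in RefSeq (GRCm38.p6, 250 bases before to 50 after each annotated start) and were found for 7 of the 9 genes, in 11 windows. Fech and Hmox1 had no entry. Of the genes with a window, 4 held a searched motif. The windows shown are those of Alas1 with the NRF1 motif (GCGCA, any base, then GCGC), for the nuclear respiratory factor that regulates mitochondrial genes, and those of Alad, Urod and Uros with an E-box (CACGTG), which reads the same on both strands and is bound by basic helix-loop-helix factors. They are printed 5′ to 3′ in the direction of transcription, with matches on either strand in capitals. Alas1 at chr9:106247681-106247980, Alad at chr4:62520014-62520313 and chr4:62519860-62520159, Urod at chr4:116994364-116994663 and Uros at chr7:133709246-133709545 are all read from the reverse strand.
Alas1: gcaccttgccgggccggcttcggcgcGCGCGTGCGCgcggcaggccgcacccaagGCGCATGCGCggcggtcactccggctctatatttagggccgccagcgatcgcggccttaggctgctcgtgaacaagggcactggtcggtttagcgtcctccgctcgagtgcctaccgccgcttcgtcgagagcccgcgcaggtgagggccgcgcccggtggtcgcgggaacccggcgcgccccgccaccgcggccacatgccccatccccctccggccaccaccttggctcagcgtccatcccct
Alad, first window: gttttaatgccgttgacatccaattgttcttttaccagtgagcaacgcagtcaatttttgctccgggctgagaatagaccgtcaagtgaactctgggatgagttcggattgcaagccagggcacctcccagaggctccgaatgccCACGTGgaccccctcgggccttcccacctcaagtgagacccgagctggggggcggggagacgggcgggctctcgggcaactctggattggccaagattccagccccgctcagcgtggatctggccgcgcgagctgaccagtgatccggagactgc
Alad, second window: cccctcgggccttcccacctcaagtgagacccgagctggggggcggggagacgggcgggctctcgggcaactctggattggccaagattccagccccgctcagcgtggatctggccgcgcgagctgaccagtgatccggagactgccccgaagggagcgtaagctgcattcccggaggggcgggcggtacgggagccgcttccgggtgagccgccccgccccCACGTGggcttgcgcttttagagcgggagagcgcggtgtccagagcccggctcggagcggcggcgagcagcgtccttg
Urod: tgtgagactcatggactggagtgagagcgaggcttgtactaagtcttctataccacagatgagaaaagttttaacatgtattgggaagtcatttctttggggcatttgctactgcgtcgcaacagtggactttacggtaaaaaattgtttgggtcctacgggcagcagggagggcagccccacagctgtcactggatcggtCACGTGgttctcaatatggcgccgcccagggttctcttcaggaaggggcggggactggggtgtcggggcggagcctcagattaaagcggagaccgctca
Uros: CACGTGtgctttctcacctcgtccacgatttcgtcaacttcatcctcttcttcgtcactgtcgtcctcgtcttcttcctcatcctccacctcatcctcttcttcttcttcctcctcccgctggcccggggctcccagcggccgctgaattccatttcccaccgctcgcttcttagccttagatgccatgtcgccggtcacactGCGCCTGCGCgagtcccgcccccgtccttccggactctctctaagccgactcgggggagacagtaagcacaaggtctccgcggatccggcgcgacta
The NRF1 matches of Alas1 begin 224 and 195 bases before this start, and the same matches lie at the start itself and 29 bases after it in the other, overlapping Alas1 window. The E-boxes of Alad begin 105 bases before one start and 28 bases before the other, that of Urod 49 bases before its start, and that of Uros 250 bases before, where an NRF1 match on the opposite strand follows 47 bases before the start. No window of Cpox, Ppox or Blvrb held either motif, and none of the 11 held the antioxidant response element (TGACNNNGC), the motif read by NRF2. Over all 32851 promoter windows of the same length, the E-box was present in 7.15%, the NRF1 motif in 4.60% and the antioxidant response element in 12.4%. These are matches of letters and not measured sites of binding.

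The Alas1 gene (ENSMUSG00000032786) lies at chr9:106233455-106248654 and Alad (ENSMUSG00000028393) at chr4:62509169-62519918, Uros (ENSMUSG00000030979) at chr7:133686243-133710072, Urod (ENSMUSG00000028684) at chr4:116989965-116994413 and Ppox (ENSMUSG00000062729) at chr1:171275990-171281186, all on the reverse strand of GRCm38 in GENCODE M21. On the forward strand are Cpox (ENSMUSG00000022742) at chr16:58670292-58717636, Hmox1 (ENSMUSG00000005413) at chr8:75093621-75100589 and Blvrb (ENSMUSG00000040466) at chr7:27447978-27466144. Alas1, Uros, Cpox and Ppox overlap a gene on the opposite strand (4930500F10Rik, Bccip, Gpr15 and B4galt3), and since the use of strand in the counting is not given in the sources used here, reads in the shared stretches may be uncertain for these 4 genes.

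Scaled to the length of the principal transcript, Alas1 stood highest at a mean of 175 CPM per kb over the 8 livers, followed by Alad at 143 and Blvrb at 139 CPM per kb. These 3 overlapped from mouse to mouse. Urod (57.4 CPM per kb) and Cpox (39.2 CPM per kb) came next, and neither overlapped its neighbours in this order. Hmox1 (16.2 CPM per kb), Uros (15.5), Fech (15.1) and Ppox (13.2) formed the lowest group, with overlapping values. The order of the means was identical when the union of all exons was used as the length, an alternative added after seeing the data. The overlaps were not identical. With that length Blvrb (37.9 to 58.9 CPM per kb) no longer overlapped Alad (72.4 to 115.7), and Cpox (15.7 to 22.4) overlapped Hmox1 (7.02 to 27.4). Alas1 and Alad then had means of 96.1 and 95.3 CPM per kb over all livers, and of 83.0 and 93.9 in WT. The shallowest member value, Hmox1 in WT replicate 3, rested on 584 counts, whose counting error of 4.14% is well below the spread between mice.

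None of the 9 genes differed between genotypes at an adjusted p below 0.05 in edgeR's quasi-likelihood test, against 0% of all 14629 genes, where the smallest adjusted p was 0.758. At an unadjusted p below 0.05 there was 1 member, Hmox1, against 497 genes, or 3.40% of all tested in either direction and 1.42% higher in S155A. DESeq2 called 7 genes and limma-voom 0 of all genes, and neither called a member. The log2 difference was above 0 for 8 of the 9, with a median of 0.04 beside -0.01 over all genes, but with scaling by library size alone it was above 0 for 4 of the 9. No member had WT and S155A values that did not overlap, against 2.30% of all genes.

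**Figure D1:**
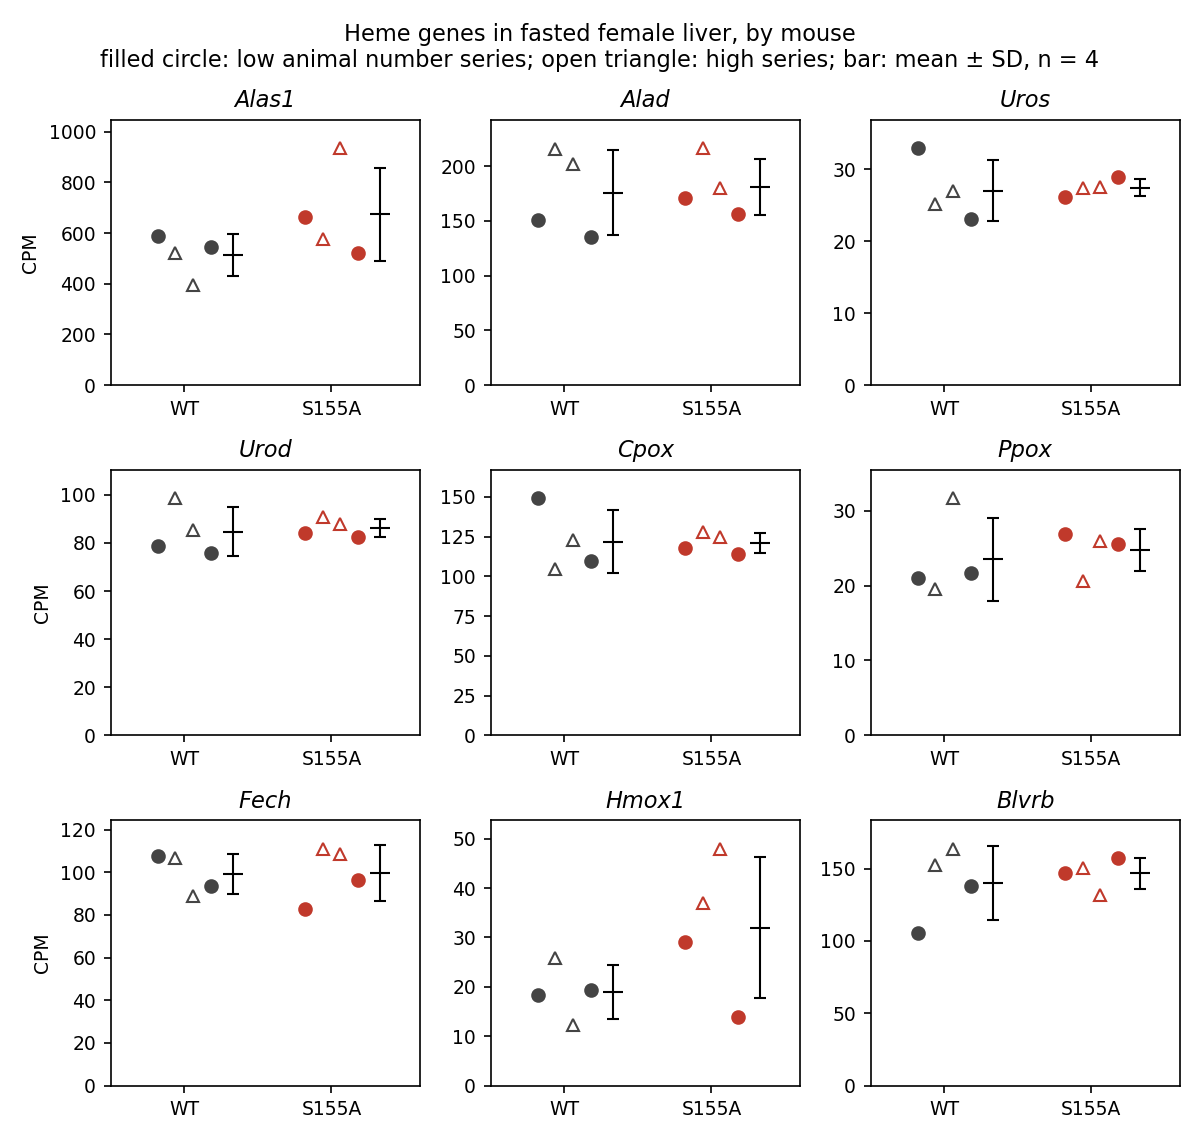
Level of each of the 9 heme genes in CPM on a linear axis from 0, 1 point per mouse, with filled circles for the low and open triangles for the high animal number series and bars for mean ± SD (n = 4). WT and S155A mice overlap in every panel, and S155A replicate 3 is highest for Alas1, at 936 CPM, and for Hmox1, at 48.0 CPM.

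Alas1, the first and rate-limiting enzyme, was at 587, 521, 395 and 547 CPM in WT replicates 1 to 4 and at 664, 575, 936 and 523 CPM in S155A replicates 1 to 4. S155A replicate 3 stood above all others and WT replicate 3 below all others, while the other 6 livers lay between 521 and 664 CPM with both genotypes mixed. The means were 512 ± 83.0 CPM in WT and 675 ± 184 CPM in S155A (SD, n = 4 each), a log2 difference of 0.40 with a 95% interval of -0.03 to 0.83 (adjusted p = 0.993, edgeR; exact permutation p = 0.171, two-sided). That interval spans 0.978-fold to 1.77-fold. Without S155A replicate 3, the liver with the high lymphocyte markers, the log2 difference was 0.20 and the S155A mean 587 CPM. The part of those markers in the difference was not tested.

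Alad, which condenses 2 molecules of 5-aminolevulinic acid to porphobilinogen, was at 151, 215, 201 and 135 CPM in WT and at 171, 216, 180.3 and 156 CPM in S155A replicates 1 to 4. In both genotypes replicates 2 and 3 were above replicates 1 and 4, so the livers separated by animal number series and not by genotype. Genotype means were 176 ± 38.6 and 181 ± 25.8 CPM (SD, n = 4 each), a log2 difference of 0.04 (95% interval -0.33 to 0.41, adjusted p = 0.996, edgeR). The ratio of Alas1 to Alad within a mouse, which does not depend on library scaling, ran from 1.96 in WT replicate 3 to 5.19 in S155A replicate 3. Without those 2 livers it lay between 2.42 and 4.04.

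Uros, which closes the porphyrin ring, was at 32.9, 25.2, 26.9 and 23.0 CPM in WT and at 26.1, 27.3, 27.5 and 28.9 CPM in S155A replicates 1 to 4. Urod, which removes carboxyl groups from the closed ring, was at 78.7, 98.5, 85.5 and 75.7 CPM in WT and at 84.3, 90.9, 87.8 and 82.4 CPM in S155A. For both genes all S155A values lay inside the WT range. The log2 differences were 0.02 for Uros (95% interval -0.24 to 0.29) and 0.03 for Urod (-0.21 to 0.26), so that differences beyond about 1.22-fold and 1.20-fold higher in S155A lay outside these intervals.

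Cpox, the coproporphyrinogen oxidase of the mitochondrial intermembrane space, was at 149, 105, 123 and 109.9 CPM in WT and at 118, 128, 125 and 114 CPM in S155A replicates 1 to 4. Ppox, which oxidises protoporphyrinogen to protoporphyrin IX, was at 21.1, 19.5, 31.6 and 21.7 CPM in WT and at 26.9, 20.6, 25.9 and 25.5 CPM in S155A. Fech (ENSMUSG00000024588, chr18:64452914-64490251, reverse strand), the ferrochelatase that inserts iron, was at 108, 107, 88.8 and 93.7 CPM in WT and at 82.7, 111, 109 and 96.6 CPM in S155A. Cpox and Ppox in S155A stayed inside the WT range, with WT replicate 1 highest for Cpox and WT replicate 3 highest for Ppox, whereas Fech was both lowest and highest in S155A livers. Their log2 differences were -0.01 (95% interval -0.28 to 0.27), 0.08 (-0.29 to 0.44) and 0.01 (-0.26 to 0.28).

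Hmox1, the inducible heme oxygenase, was at 18.3, 25.8, 12.3 and 19.4 CPM in WT and at 29.1, 37.1, 48.0 and 13.9 CPM in S155A replicates 1 to 4. Replicates 1 to 3 of S155A were above every WT liver, and S155A replicate 4 was below all WT livers but replicate 3. The means were 18.9 ± 5.52 CPM in WT and 32.0 ± 14.3 CPM in S155A (SD, n = 4 each), a log2 difference of 0.76 with a 95% interval of 0.00 to 1.51, or 1.69-fold. Hmox1 had the largest difference of the 9 and did not pass the test over all genes (unadjusted p = 0.0488 and adjusted p = 0.993, edgeR; exact permutation p = 0.171). The log2 difference was 0.50 without S155A replicate 3 and 1.01 without S155A replicate 4. In the latter case Hmox1 no longer overlapped between genotypes, as was so for 4.58% of all genes.

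Hmox1 is expressed in Kupffer cells, the macrophages of liver, which take up aged red blood cells. Summed Kupffer cell and macrophage markers were 428, 337, 412 and 621 CPM in WT and 508, 668, 513 and 334 CPM in S155A replicates 1 to 4. S155A replicate 4 was lowest for this sum and lowest for Hmox1 among S155A livers, but WT replicate 4 was second highest for the sum with Hmox1 at 19.4 CPM. Red blood cell markers ran from 416 to 2652 CPM in WT and from 958 to 1160 CPM in S155A. The part of either cell type in Hmox1 was not tested.

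Blvrb, which reduces biliverdin and flavins, was at 105, 153, 164 and 138 CPM in WT and at 147, 150.3, 132 and 157 CPM in S155A replicates 1 to 4. The S155A livers lay inside the WT range, with a log2 difference of 0.07 (95% interval -0.24 to 0.38, adjusted p = 0.996, edgeR). The spread within a genotype was narrower in S155A than in WT for 6 genes, such as Uros, with a coefficient of variation of 4.24% against 15.7%, and Blvrb, with 7.32% against 18.1%. It was wider for Alas1 (27.2% against 16.2%), Hmox1 (44.8% against 29.1%) and Fech (13.0% against 9.53%). These spreads are given as a description.

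**Figure D2:**
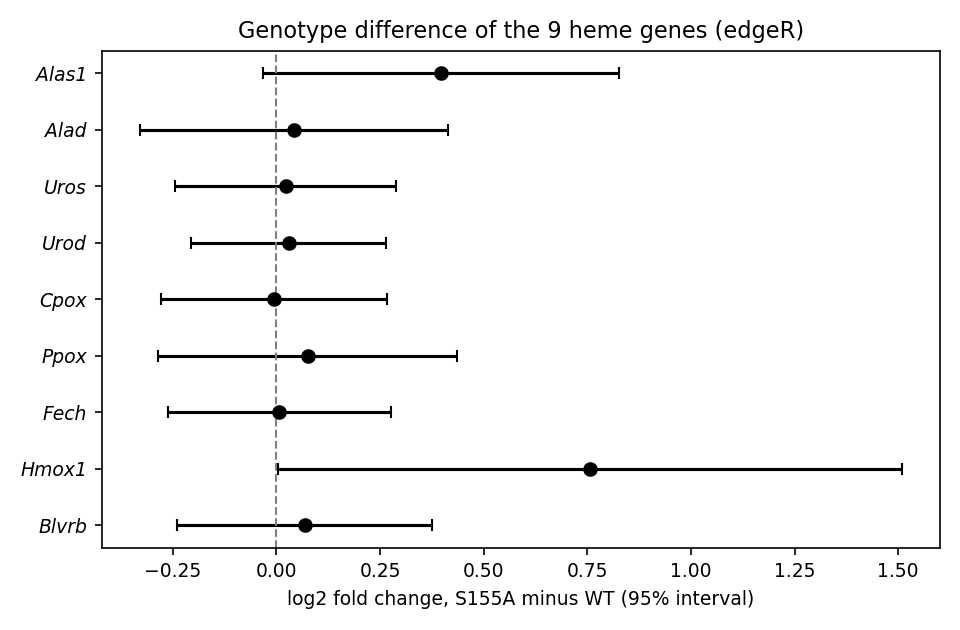
Log2 fold change of S155A against WT for each of the 9 heme genes from the edgeR model, with 95% intervals as bars (n = 4 per genotype) and a dashed line at 0. The intervals of 8 genes cross 0, and that of Hmox1 starts at 0.00 and reaches 1.51.

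Within the animal number series, each with 2 mice of either genotype, the genotype difference was unequal for several genes. The log2 difference of Alas1 was 0.06 in the low and 0.69 in the high series, and that of Hmox1 was 0.10 and 1.24. Neither difference between the series passed the interaction test of edgeR (adjusted p = 0.523 for Alas1 and 0.564 for Hmox1). Blvrb was higher in both S155A mice than in both WT mice of the low series (0.33) and lower in both of the high series (-0.17), with an interaction of -0.49 ± 0.22 (SE; adjusted p = 0.463, edgeR). Such opposite order in every mouse was seen for 1 of the 9 members and for 9.49% of all genes. The difference in means alone also changed sign from the low to the high series for Alad (0.19 and -0.08), Urod (0.11 and -0.04) and Ppox (0.29 and -0.10). It changed the other way for Uros (-0.004 and 0.07), Cpox (-0.14 and 0.15) and Fech (-0.17 and 0.17). Only Alas1 and Hmox1 kept the same sign in both series. Of the members, 0 passed the interaction test in edgeR (0% of all genes) and 0 were at an unadjusted p below 0.05, where 11.1% of all genes were, while 274 genes passed in DESeq2 and 1 in limma-voom, no member among them.

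**Figure D3:**
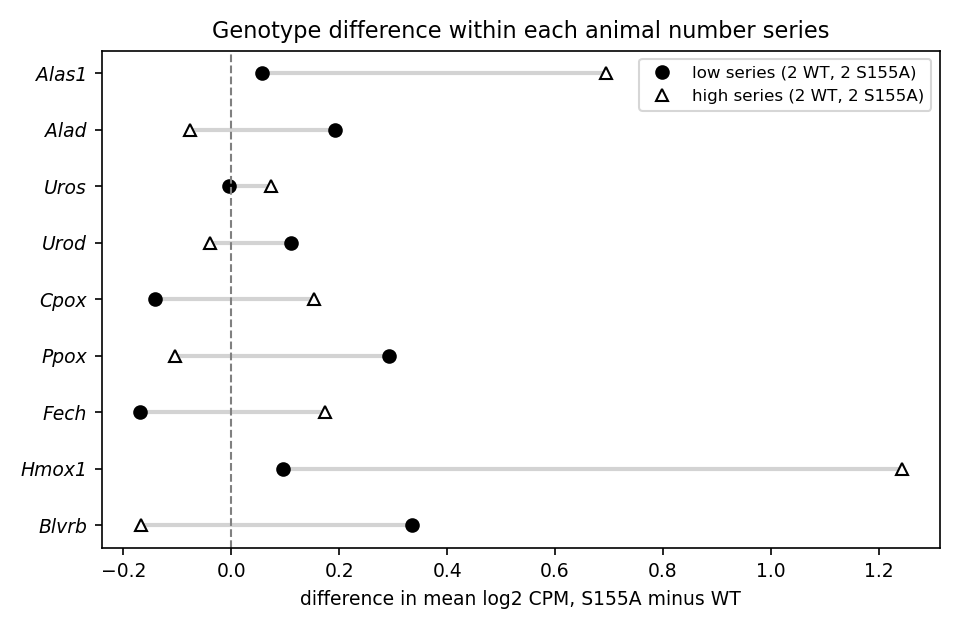
Difference in mean log2 CPM between S155A and WT mice for each heme gene, within the low series (filled circles) and the high series (open triangles), each from 2 mice per genotype. Alas1 and Hmox1 sit at 0.69 and 1.24 in the high series and near 0 in the low series. Every other gene, Blvrb among them, lies on opposite sides of 0 in the low and high series.

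The series themselves, taken over both genotypes, separated Alad and Urod. Alad lay between 135 and 171 CPM in the 4 low-series livers and between 180.3 and 216 CPM in the 4 high-series livers, with a log2 difference of 0.41 ± 0.11 (SE). It did not pass the test over all genes in edgeR (unadjusted p = 0.00359, adjusted p = 0.204) or in limma-voom (adjusted p = 0.198), and passed it in DESeq2 (adjusted p = 0.0363). Urod lay between 75.7 and 84.3 CPM in the low and between 85.5 and 98.5 CPM in the high series, a log2 difference of 0.18 ± 0.09 (SE; adjusted p = 0.442, edgeR). The exact permutation p was 0.0286 for each of these 2 genes, the smallest that 4 against 4 livers can give. In all, 2 of the 9 members did not overlap between the series, against 6.85% of all genes, and 0 members passed the adjusted test in edgeR (0% of all genes) with 1, Alad, at an unadjusted p below 0.05 (12.8% of all genes). DESeq2 called 376 of the 14213 genes to which it gave an adjusted p, and limma-voom 0.

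Across the 8 livers, 36 pairs of members were correlated on log2 CPM, of which 21 were positive. Alad and Urod varied together most closely (Pearson r = 0.91, exact permutation p = 0.00122, adjusted over the 36 pairs 0.0438; Spearman rho = 0.95, exact permutation p = 0.00114, adjusted 0.0411). Without the 2 livers farthest from the Alad median r was 0.87, and within the low and high series, of 4 livers each, it was 0.97 and 0.59. This pair no longer passed the adjusted test when any 1 mouse was left out or when library size alone set the scale. Both genes separate the series, and with log2 CPM centred on each series r was 0.75.

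Alas1 and Hmox1, the regulated steps of synthesis and breakdown, had r = 0.82 (exact permutation p = 0.00754, adjusted 0.136; rho = 0.71, adjusted 0.518). It was 0.46 without WT replicate 3 and S155A replicate 3, the livers farthest from the Alas1 median, and within the low and high series, of 4 livers each, it was 0.93 and 0.91, the low series holding neither of those livers. Uros and Cpox had r = 0.82 (exact permutation p = 0.0200, adjusted 0.240; rho = 0.71), and 0.44 without WT replicates 1 and 4. Within the low and high series r of this pair was 0.85 and 0.98. The most negative pair was Cpox and Blvrb, with r = -0.70 (exact permutation p = 0.0676, adjusted 0.532; rho = -0.43).

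**Figure D4:**
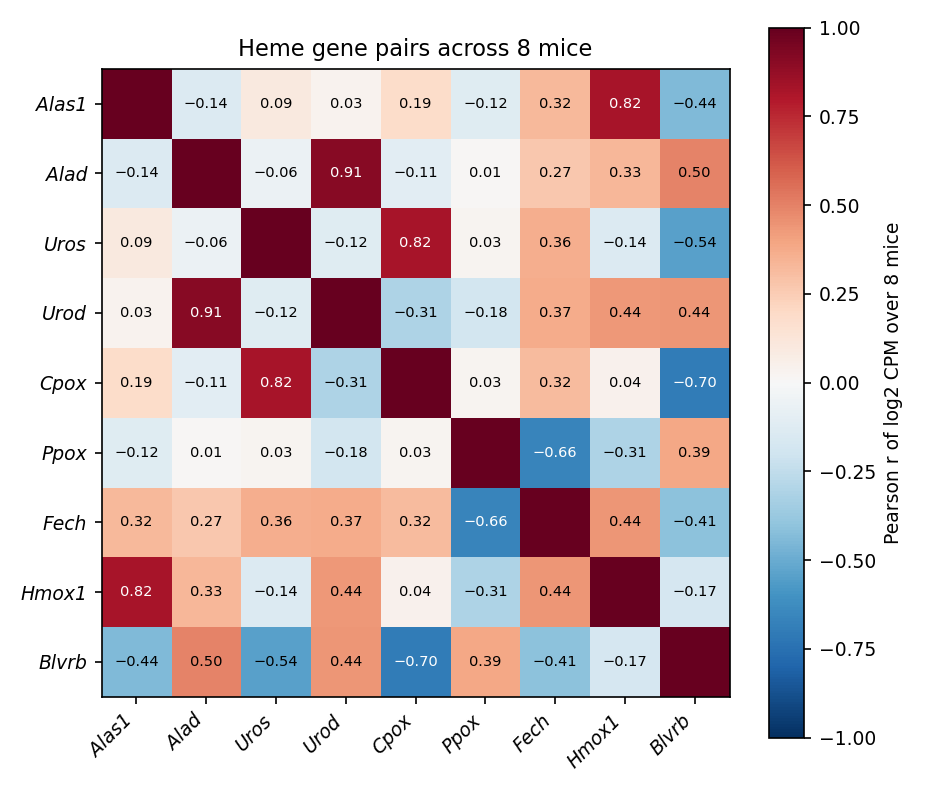
Pearson r of log2 CPM over the 8 livers for every pair of heme genes, with red for positive and blue for negative values. The darkest positive cells off the diagonal are Alad with Urod (0.91), Alas1 with Hmox1 (0.82) and Uros with Cpox (0.82).

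Among 12099 genes of mean CPM of at least 1, the gene most like Alas1 from liver to liver was Lpxn, an adaptor of leukocytes (r = 0.96, rho = 0.64). Next were the immunoglobulin genes Ighg3 (r = 0.95, rho = 0.95) and Iglc2 (r = 0.90, rho = 0.83). Ighg3 lay between 0 and 0.37 CPM in WT and between 0.04 and 10.6 CPM in S155A livers. Its mean thus reached 1 CPM only through S155A livers. Iglc2 lay between 0.24 and 1.16 CPM in WT and between 0.55 and 12.4 CPM in S155A livers. For Iglc2, too, the mean reached 1 CPM only through S155A livers. Without S155A replicate 3, r was 0.89 for Lpxn, 0.91 for Ighg3, with WT values near 0, and 0.71 for Iglc2. Most like Hmox1 were Ctsd, a lysosomal protease (r = 0.97), Fes, a kinase of myeloid cells (r = 0.96), and Tmem170b (r = 0.96), with 0.95, 0.97 and 0.93 without S155A replicate 3. These values are a description over 8 livers, chosen as the highest of all genes searched.

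Other enzymes of the pathway that were tested were not called either. Alas2, the erythroid form of the first enzyme, was at 13.4, 25.2, 29.1 and 33.6 CPM in WT replicates 1 to 4 and at or below 20.97 CPM in S155A (log2 difference -0.49), beside the red blood cell markers given above. The constitutive oxygenase Hmox2 was at 46.2 ± 1.83 and 47.5 ± 3.19 CPM (0.04), and the reductase Blvra at 8.72 ± 1.17 and 7.99 ± 1.27 CPM (-0.13). All 3 of these genes overlapped between genotypes.

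The lists around the pathway held no gene called in either direction. Over all 14629 genes tested, 7138 had a log2 difference above 0. Of 17 tested genes for transport of heme and its precursors, 11 had a log2 difference above 0 (median 0.03). Slc48a1, which carries heme out of the lysosome, lay between 60.2 and 64.9 CPM in WT and between 65.3 and 71.9 CPM in S155A (log2 difference 0.10, adjusted p = 0.993, edgeR). Such lack of overlap was seen for 2.30% of all genes. Of 12 genes of plasma heme capture and bilirubin disposal, 8 were above 0 (median 0.10). The smallest unadjusted p in that list was for Gsta2, a glutathione transferase, at 13.8 ± 3.09 and 18.1 ± 2.48 CPM (0.40). Of 25 hemoproteins and their partners, 18 were above 0 (median 0.12), and Cyp51, the P450 of cholesterol synthesis, was at 26.3 ± 8.05 and 57.7 ± 37.4 CPM (log2 difference 1.13 ± 0.44, SE). Cyp51 was at 102 and 75.8 CPM in S155A replicates 2 and 3 and at 29.4 and 23.9 CPM in replicates 1 and 4.

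Of 23 regulators of Alas1 and Hmox1, 15 had a log2 difference above 0 (median 0.05). Ncor1, a corepressor, was at 83.6 ± 9.71 CPM in WT and 69.5 ± 7.76 CPM in S155A (-0.27), Nfe2l2, which encodes NRF2, at 63.7 ± 4.00 and 54.9 ± 11.9 CPM (-0.21), and its inhibitor Keap1 at 65.4 ± 6.38 and 73.5 ± 1.81 CPM (0.17). Of 12 tested NRF2 targets, the gene group to which Hmox1 also belongs, 6 were above and 6 below 0 (median 0.01). Both subunits of glutamate-cysteine ligase were lower in S155A without passing the test over all genes. Gclc was at 165 ± 25.2 and 133 ± 12.8 CPM (-0.32) and Gclm at 94.0 ± 8.64 and 81.3 ± 4.16 CPM (-0.21). Gclm did not overlap between genotypes, as was so for 2.30% of all genes. Of 13 tested clock genes, 9 were above 0 (median 0.09). Their log2 differences between the high and low series went in both directions, from -2.21 for Arntl and -2.07 for Npas2 to 2.99 for Dbp and 3.15 for Ciart. The median of these series differences was 0.47, beside -0.004 over all genes, and none passed the adjusted test in edgeR.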

How the data were processed

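RNA was sequenced from the liver of 8 female mice (4 WT, 4 S155A), as stranded mRNA libraries read in pairs of 100 bp. The values the authors deposited are salmon's estimated counts for each gene, scaled for average transcript length and not for library size. The submitters' processing notes name GRCm38, bcl2fastq, STAR, SAMtools, MultiQC and DESeq2. The salmon version, annotation and strand setting are not given in the sources used here. Length scaling can change a count where isoforms differ between mice, and salmon divides reads of similar genes by a model.

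Estimated counts were rounded, filtered with filterByExpr (14629 of 45706 genes), TMM-normalized and tested with edgeR 4.0.16 in R 4.3.3 (quasi-likelihood test, all 8 mice, no block, Benjamini-Hochberg adjustment). The series were tested in a fit of genotype plus series, and the interaction in one with their product added. Single genes and pairs were compared by two-sided exact permutation tests of log2 CPM (prior count 2; scipy 1.17.1), whose smallest p for 4 against 4 is 0.0286. Standard errors and 95% intervals come from the F statistic. Of these tests, those of genotype and of the interaction in edgeR were checked on simulated counts. DESeq2 1.42.0, limma-voom (limma 3.58.1), other scalings and filters, a robust fit, 2 blocks and leaving out each mouse were alternatives.

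The members and lists were chosen with earlier results of these data known. Besides the 9 members, up to 3 genes per list with the smallest p and the 3 genes most like Alas1 and Hmox1 could be named. Nfe2l2, Keap1, Gclc and Gclm fall under that rule, and Hmox2 was added after its values were seen. Arntl, Npas2 and Dbp fall outside it and are named for their series differences, at the ends of the range among clock genes. A further gene of the pathway is not reported here. Of the gene identifiers, 45143 are in GENCODE M21. No pair of libraries was a copy, as chi-square per gene was 41.7 for the closest. Counting error only is covered by the error quoted for a count.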

Additional observations from a re-analysis of the deposited data

Results flagged for a closer look

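Blvrb was singled out because its genotype difference had opposite signs in the animal number series in every mouse. In the low series, S155A livers were at 147 and 157 CPM and WT livers at 105 and 138 CPM, and in the high series at 150.3 and 132 CPM against 153 and 164 CPM. The interaction on the log2 scale was -0.49, with a 95% interval of -0.98 to 0.01 and an adjusted p of 0.463 in edgeR, so a difference between the series did not pass the test over all genes. For the 9 heme genes, no liver's level stood apart from the others of its genotype by Dixon's test at the 95% level, in 18 groups searched (each gene in each genotype).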

How the results depend on the processing

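No member was called between genotypes under any alternative tried. With all mice kept, the unadjusted p of Hmox1 ran from 0.0197 in DESeq2 to 0.0995 in limma-voom. That of Alas1 ran from 0.0497 in DESeq2 to 0.131 in edgeR with a replicate block. Over all genes, DESeq2 called 7 against 0 in edgeR. For the interaction, edgeR called 0 of 14629 genes, DESeq2 274 of the 15036 with an adjusted p and limma-voom 1 of 14629. Without a filter, edgeR called 765 of 22439 genes, among them 1 member, Hmox1 (adjusted p = 0.0108, and 0.447 to 0.564 under the other alternatives). The smallest adjusted p over all genes was 1.14e-138 in that unfiltered fit and 0.0851 in the main edgeR fit. For the series, 0 genes were called in edgeR. DESeq2 called 376 of the 14213 with an adjusted p, with 1 member (Alad), and edgeR with no filter 514 of 22439. The cause of these unequal numbers was not tested. Leaving out each mouse, the number of members whose genotypes did not overlap ran from 0 to 1, against 3.77% to 6.75% of all genes. The number of pairs past the adjusted threshold was 0 each time (lowest 0, highest 0) against 1 with all mice. It was 0 with library size alone. Centring on genotype or series allowed no adjusted p below 0.0625, so those alternatives gave no test.

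Signs near 0 turned. With library size alone the log2 differences were -0.0014 for Alad, -0.012 for Uros, -0.0088 for Urod and -0.035 for Fech. Cpox was 0.0069 in limma-voom and 0.0064 with a replicate block, and Fech -0.00015 with an animal series block. Leaving out a mouse gave -0.064 to 0.16 for Alad, -0.047 to 0.14 for Uros, -0.021 to 0.11 for Urod, -0.070 to 0.11 for Cpox, -0.0031 to 0.25 for Ppox, -0.042 to 0.087 for Fech and -0.042 to 0.15 for Blvrb, while Alas1 (0.20 to 0.50) and Hmox1 (0.50 to 1.01) kept their sign. Same-numbered WT and S155A mice deviated together with r of 0.06, 0.17, -0.11 and 0.13 over genes for replicates 1 to 4. The highest r of the WT mouse with an S155A mouse of another number was 0.04, 0.12, 0.14 and 0.01. Same-numbered mice also share a series, so these values cannot decide whether the numbers pair mice. With the replicate block 0 genes were called, Alas1 was 0.37 and Hmox1 0.66.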
